A study of Mus musculus with 9 samples.

Results

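Glutamate and GABA are the main excitatory and inhibitory transmitters of the cortex, and a small set of genes decides which of them a neuron can release. Vesicular glutamate transporters load glutamate into synaptic vesicles. In GABA neurons, glutamate decarboxylases make GABA from glutamate and a separate vesicular transporter loads it. Once released, GABA is taken up by plasma membrane transporters on neurons and astrocytes and is broken down by a transaminase in mitochondria. The expression of 8 such genes was examined in laser-captured layers of the mouse piriform cortex, the olfactory cortex that receives input from the olfactory bulb. The genes were 3 vesicular glutamate transporters (Slc17a7, Slc17a6 and Slc17a8) and 5 genes of GABA handling (Gad1, Gad2, Slc32a1, Slc6a11 and Abat), of 33958 annotated genes in the count tables. All 8 were chosen by name for their function, and each was represented by the transcript with the highest mean count over the samples.

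RNA deep sequencing was performed on 9 samples, 3 replicates of each of 3 layers, which the labels call A, B and C and which are also given by these letters alone. All of them came from wild type C57BL/6 mice with a labelled age of 8 weeks, with no treatment, and the layers were cut by laser from fresh-frozen brain sections. The methods give a different age for the mice of these sections, and the labelled age is used here. The letters are used as they stand, because neither the labels nor the methods give a key from A, B and C to the anatomical layers I, II and III. The labels do not tie samples to animals, so that the p-values below measure the spread between samples, which may be technical. In pieces of tissue, fewer cells of a type and less RNA per cell cannot be told apart.

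Total counts ranged from 23104306 to 76471683 per sample. Levels are given as CPM, the counts relative to library totals that were scaled by the trimmed mean of M values (TMM), whose factors ran from 0.467 to 1.63. Transcripts of the mitochondrial genome took 56.4 to 72.6% of the counts in layer A, 13.1 to 30.1% in B and 21.2 to 59% in C. Pan-neuronal marker transcripts were detected in every sample. Layer B replicate 3 stood apart. Its log2 CPM correlated with the other two samples of layer B at 0.888 and 0.88, against 0.978 between those, and it was read less in the upstream part of genes. In the median of 3097 genes, an annotated transcript that ends before the last 50% of the exonic bases had 8.35% of the count of the full transcript in that sample, and 13.4 to 19.7% in the other 8. The tests of the members, their order per kilobase in layer B and the counts of the gene lists are therefore also given without this sample.

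Of the 8 genes, 7 were counted in all 9 samples, and Slc17a8 in 7. Slc17a7, the vesicular glutamate transporter that prevails in cortical pyramidal cells, had 1 annotated transcript in the table, at chr7:45163949-45176142 of GRCm38 on the plus strand. Slc17a6, the form known mainly from thalamus and other subcortical neurons, lay on the same chromosome at 51622006 to 51671119. Slc17a8, another form, found in scattered neurons that often release another transmitter, lay on chromosome 10 at 89574020 to 89621253 on the minus strand. The decarboxylase genes Gad1 (GAD67, which makes most of the GABA of the brain) and Gad2 (GAD65, associated with terminals) lay on chromosome 2, at 70562042 to 70602014 and at 22622205 to 22693874. Slc32a1, the vesicular GABA transporter, lay on chromosome 2 at 158610767 to 158615748. Slc6a11, the GABA uptake transporter GAT-3 of astrocytes, lay on chromosome 6 at 114131241 to 114249952, and Abat, the GABA transaminase, on chromosome 16 at 8513429 to 8621568, all on the plus strand.

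Gad1, Gad2 and Slc32a1 varied together over the samples, but other pairs of members, such as Slc6a11 and Abat, did so at least as closely (below). The sequences just before the starts of Gad1, Gad2 and Slc32a1 are shown beside those of the main glutamate transporters, Slc17a7 and Slc17a6. The sequences are from RefSeq on GRCm38.p6, where 7 of the 8 genes had an entry and Abat had none. Each runs 5′ to 3′ on the plus strand and stops before the first base of the annotated transcript, and capitals mark the letters of a GC box (GGGCGG or CCGCCC) or a TATA box (TATAAA or TTTATA). They lie at chr7:45163671-45163920, chr7:51621580-51621829, chr2:70561879-70562041, chr2:22622077-22622204 and chr2:158610508-158610757, in this order.
Slc17a7: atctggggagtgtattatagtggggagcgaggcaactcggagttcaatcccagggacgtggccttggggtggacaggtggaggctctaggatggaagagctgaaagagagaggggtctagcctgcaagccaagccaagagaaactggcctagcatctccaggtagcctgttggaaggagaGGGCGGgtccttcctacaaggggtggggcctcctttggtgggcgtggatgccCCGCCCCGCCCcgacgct
Slc17a6: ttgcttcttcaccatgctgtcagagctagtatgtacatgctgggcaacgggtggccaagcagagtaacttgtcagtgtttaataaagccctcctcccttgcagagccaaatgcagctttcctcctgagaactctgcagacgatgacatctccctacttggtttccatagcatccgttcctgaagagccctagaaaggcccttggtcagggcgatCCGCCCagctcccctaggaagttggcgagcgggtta
Gad1: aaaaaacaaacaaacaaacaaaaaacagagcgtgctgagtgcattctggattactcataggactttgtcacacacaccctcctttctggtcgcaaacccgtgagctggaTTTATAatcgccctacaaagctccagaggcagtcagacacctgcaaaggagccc
Gad2: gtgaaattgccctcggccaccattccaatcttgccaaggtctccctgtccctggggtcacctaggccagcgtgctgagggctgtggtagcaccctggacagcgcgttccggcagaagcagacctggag
Slc32a1: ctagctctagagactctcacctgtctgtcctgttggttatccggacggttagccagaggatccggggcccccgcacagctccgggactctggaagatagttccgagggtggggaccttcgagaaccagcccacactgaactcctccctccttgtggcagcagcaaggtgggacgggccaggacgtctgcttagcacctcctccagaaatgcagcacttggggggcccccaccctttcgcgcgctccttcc
In the 250 bases before the RefSeq start, searched on both strands, GC box letters occurred 3 times for Slc17a7, with 2 of them overlapping by 1 base, once for Slc17a6, once for Gad1 beyond the stretch shown, and not for Gad2 or Slc32a1. They are present in 32.7% of 32851 RefSeq windows of that length. The TATA letters occurred once, before Gad1, and are present in 12.4% of the windows. The homeodomain core TAATTA, held by 4.84% of the windows, was in none of the 5. The E-box CAGATG or CATCTG, held by 14.4%, was in that of Gad2 alone among the 5, beyond the stretch shown. Such matches describe letters and not binding sites. The content of G and C in the stretches shown was 61.2% for Slc17a7, 53.2% for Slc17a6, 46.6% for Gad1, 62.5% for Gad2 and 62.4% for Slc32a1, with a median of 52.4% over all windows.

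Among the glutamate transporters, Slc17a7 prevailed. By its mean per kilobase of transcript it was the most abundant of the 8 genes in each layer, at 39.9 CPM per kb in layer A, 85.4 in B and 64.8 in C. In layer A it measured 70.6, 142 and 136 CPM in replicates 1, 2 and 3. In layer B it measured 314, 268 and 165 CPM, and in C 238, 118 and 211 CPM. All 3 samples of layer B lay above those of layer A, while layer C overlapped both.

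Slc17a6 measured 4.23, 2.27 and 9.38 CPM in layer A. The samples of layer B held 6.92, 4.92 and 33.3 CPM, and those of layer C 28.4, 40.6 and 29.9 CPM. Every sample of layer C was thus above every sample of layer A, and layer B was divided, with replicate 3 at the level of layer C and the other two within the range of layer A. Per kilobase, Slc17a6 had a mean level of 7.97 ± 1.6 CPM (SD, n = 3) in C, against 1.28 ± 0.887 in layer A.

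Slc17a8 was close to the limit of detection. Its counts were 0, 1 and 0 in layer A, 5, 4 and 16 in B, and 48, 2 and 70 in C. A floor of 3 counts corresponds to between 0.0256 and 0.254 CPM, depending on the sample, so that in layer A and in layer C replicate 2 the gene was not above what a count of 0 allows. It passed the filter on low counts only through layer B replicate 3 and layer C replicates 1 and 3, that is, through the layers in which it was higher. Pooled over the samples, its CPM was 46.2 times higher in C than in A (120 against 1 count, exact 95% interval 8.13 to 1840) and 12.3 times higher in B than in A (25 counts against 1, 2.01 to 505). These intervals, like all floors, cover counting error only, since amplified reads are not independent molecules.

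GABA synthesis was measured through Gad2 and Gad1. Gad2 held 267, 138 and 121 CPM in the samples of layer A, 30.1, 26.0 and 83.8 CPM in B and 78.3, 96.8 and 144 CPM in C. Layer A was above layer B without overlap, and layer C lay between, overlapping both. Gad1 held 59.6, 45.2 and 43.9 CPM in layer A, 13.1, 12.3 and 77.7 CPM in B and 25.9, 28.6 and 41.4 CPM in C. The highest Gad1 value of all 9 samples was that of layer B replicate 3, and the lowest 2 were those of the other layer B samples. Layer A was above layer C for Gad1 without overlap.

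**Figure D1:**
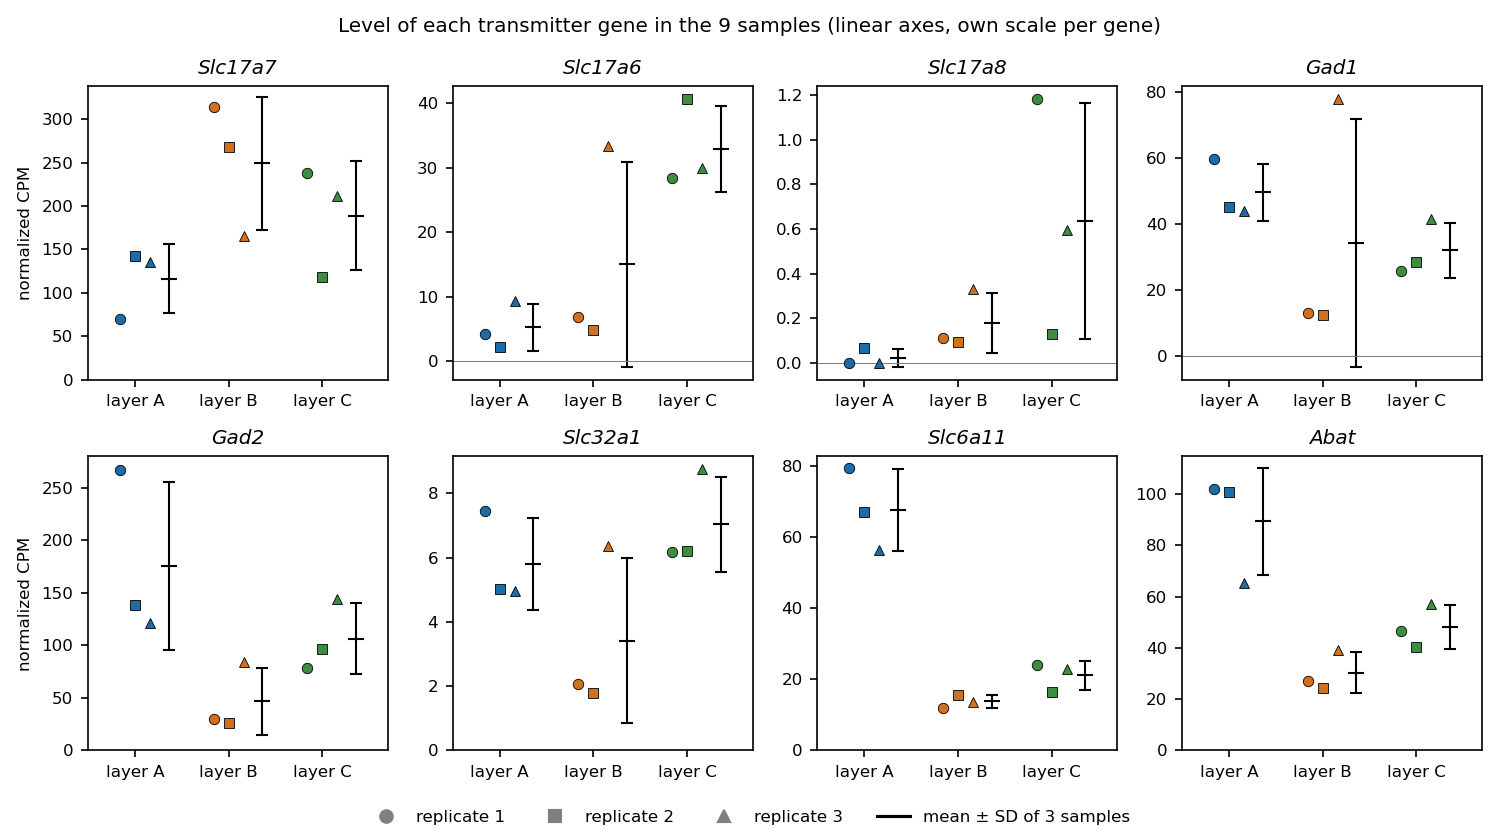
Normalized CPM (y axis, linear, with its own scale in each panel) of the 8 transmitter genes in layers A, B and C (x axis), with 1 point per sample and, to the right of each group, the mean ± SD of 3 samples. The values of Slc6a11 and Abat in layer A lie above those of both other layers, and layer B replicate 3 (triangle) lies apart from its layer for Slc17a6, Gad1, Gad2 and Slc32a1.

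Slc32a1, which loads GABA into vesicles, was the lowest GABA gene per kilobase in each layer. It measured 7.45, 5.01 and 4.96 CPM in layer A, 2.07, 1.8 and 6.37 CPM in B and 6.18, 6.19 and 8.75 CPM in C. Again replicate 3 of layer B was at the level of layers A and C, and its 2 companions were below all other samples. A lncRNA annotated antisense to the gene, Gm14205, overlaps it, and the libraries do not keep strand. That transcript had 0 to 7 counts in 8 samples and 54 in layer C replicate 3, next to 75 to 306 counts of Slc32a1 in the 8 samples and 1027 in that one.

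For the genes that remove GABA, Slc6a11 and Abat, samples did not overlap between any pair of layers, although not every pair was called (below). Slc6a11 measured 79.3, 67.1 and 56.3 CPM in layer A, 12, 15.7 and 13.7 CPM in B and 23.9, 16.5 and 23.0 CPM in C. The order A, C, B held without overlap, and replicate 3 of layer B was in the range of its layer. Abat measured 102, 101 and 65.4 CPM in layer A, 27.2, 24.4 and 39.3 CPM in B and 46.8, 40.2 and 57.2 CPM in C. It followed the same order, again without overlap between any pair of layers. Between B and C the gaps were narrow, at 15.7 against 16.5 CPM for Slc6a11 and 39.3 against 40.2 for Abat. Of the highest transcripts of all genes, 19.3% had layer A above B without overlap, 19.3% A above C and 4.99% C above B.

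Ordered by mean CPM per kb, layer A had Slc17a7 (39.9) followed by Gad2 (30.5), Abat (19.3), Slc6a11 (16.3), Gad1 (14.8), Slc32a1 (2.08), Slc17a6 (1.28) and Slc17a8 (0.005). Each of the first 5 overlapped its neighbour in this order, but not every gene further down. Slc17a7, at 24.2 or more, was above Abat, at 22.0 or less, and above Slc6a11 and Gad1. Gad2, at 21.0 or more, was above Slc6a11, at 19.2 or less, and above Gad1. In layer B, Slc17a7 (85.4) stood clear of Gad1 (10.2), Gad2 (8.12), Abat (6.54), Slc17a6 (3.63) and Slc6a11 (3.34), which overlapped in a chain. Slc32a1 (1.22) came next by its mean, but with 2.28 in replicate 3 it overlapped Slc17a6, which was at 1.67 and 1.19 in replicates 1 and 2. Slc17a8 (0.0402) was below all of them. Without replicate 3, the order in layer B was Slc17a7 (91.9 and 108 in the 2 samples), then by the mean Abat (5.57), Gad2 (4.88), Gad1 (3.78), Slc6a11 (3.35), Slc17a6 (1.43), Slc32a1 (0.692) and Slc17a8 (0.0229). Layer C ran from Slc17a7 (64.8) through Gad2 (18.5), Abat (10.4), Gad1 (9.53), Slc17a6 (7.97) and Slc6a11 (5.11) to Slc32a1 (2.52) and Slc17a8 (0.142), and there only Abat, Gad1 and Slc17a6 overlapped their neighbours. Slc17a6 thus ranked below Slc6a11 in layer A without overlap and above it in C without overlap.

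The first comparison asked which transmitter genes differ between layers A and B. Gad2, Slc6a11 and Abat were higher in layer A, and no member was called higher in B. Slc6a11 was 4.89-fold higher in layer A (log2 fold change 2.29, SE 0.295, adjusted p = 0.000265 by the quasi-likelihood F-test of edgeR). Gad2 was 3.75-fold higher (1.91, SE 0.453, adjusted p = 0.00941) and Abat 2.95-fold higher (1.56, SE 0.307, adjusted p = 0.00311). The glutamate transporters had values in the other direction, with log2 fold changes of -1.10 for Slc17a7 (SE 0.362, adjusted p = 0.0504), -1.48 for Slc17a6 (SE 0.619, adjusted p = 0.123) and -3.26 for Slc17a8 (adjusted p = 0.135), the last of which depends on the prior count. Gad1 (0.53, SE 0.543, adjusted p = 0.573) and Slc32a1 (0.76, SE 0.463, adjusted p = 0.307) did not pass.

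The 3 calls of 8 members stand against calls for 16.5% of 56416 tested transcripts and for 20.9% of the 15180 that were the highest of their gene, 13.2% with A higher and 7.65% with B higher. The samples did not overlap for 3 members with layer A above (19.3% of the highest transcripts) and for Slc17a7 with layer B above (18.9%). Slc17a8, whose counts in layer B were also all higher, is not set against these shares, because it passed the filter only through the layers where it was higher. The median log2 fold change was 1.56 over the 5 GABA genes, against -0.16 over all the highest transcripts.

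Without layer B replicate 3, all 5 GABA genes were higher in A than in B. In this fit 20.4% of transcripts were called. The log2 fold change rose to 2.02 for Gad1 (SE 0.324, adjusted p = 0.000498), 2.69 for Gad2 (SE 0.409, adjusted p = 0.000325) and 1.63 for Slc32a1 (SE 0.374, adjusted p = 0.00575). Slc6a11 (2.34, SE 0.322) and Abat (1.85, SE 0.32) moved little, with adjusted p of 0.000156 and 0.000874. Slc17a7 was then called higher in B (-1.27, SE 0.353, adjusted p = 0.0181), and the value of Slc17a6 was -0.08 (SE 0.438, adjusted p = 0.927). Slc17a8 no longer passed the filter. Gad2 was itself not called without layer A replicate 1 (1.47, adjusted p = 0.0589).

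**Figure D2:**
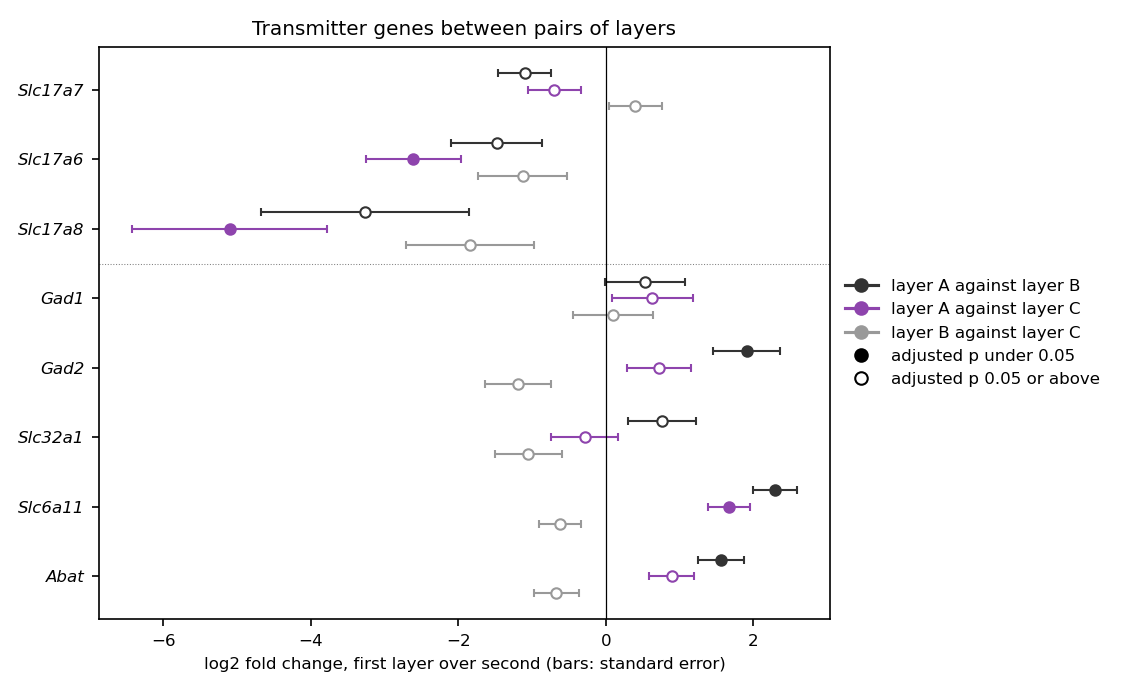
Log2 fold change (x axis, points) with its standard error (bars) of each transmitter gene (y axis) for the 3 pairs of layers, positive where the first layer is higher, with filled points where the adjusted p was under 0.05. Against layer B, Gad2, Slc6a11 and Abat are filled to the right, and against layer C, Slc6a11 is filled to the right and Slc17a6 and Slc17a8 to the left. Slc17a8 passed the filter on low counts only through layers B and C, where it was higher.

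The second comparison, of layers A and C, gave calls for Slc17a6, Slc17a8 and Slc6a11. Slc17a6 was 6.1-fold higher in C (log2 fold change of A over C -2.61, SE 0.641, adjusted p = 0.0173), and Slc17a8 was also called higher there (-5.10, adjusted p = 0.0219). The value of Slc17a8 depends on the prior count, and the gene passed the filter only through the layers where it was higher. Slc6a11 was 3.19-fold higher in layer A (1.67, SE 0.289, adjusted p = 0.00343). Abat missed the threshold (0.89, SE 0.302, adjusted p = 0.0709), and so did Slc17a7 (-0.70, SE 0.36, adjusted p = 0.254), Gad1 (0.63, SE 0.544, adjusted p = 0.539) and Gad2 (0.72, SE 0.44, adjusted p = 0.353). Slc32a1 had its higher mean in C (-0.29, SE 0.46, adjusted p = 0.772).

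Leaving out Slc17a8, for the same reason, 2 of 7 members were called, Slc6a11 with A higher and Slc17a6 with C higher, which compares with 11.3% of all transcripts and 14.8% of the highest ones, 9.33% with A higher and 5.47% with C higher. Samples of the pair did not overlap for Gad1, Slc6a11 and Abat with layer A above (19.3% of the highest transcripts), or for Slc17a6 with layer C above (16.6%). The median was 0.72 over the GABA genes, against -0.02 over all the highest transcripts. Both comparisons share the samples of layer A, so that they are not independent. The call of Slc17a6 was lost without layer A replicate 1 (adjusted p = 0.0849) or 2 (0.079) and without layer C replicate 1 (0.0572) or 2 (0.0576), at log2 fold changes from -2.25 to -2.72. The call of Slc17a8 was lost without layer A replicate 1 (adjusted p = 0.0785) or 3 (0.101), and without layer C replicate 1 or 3 the gene did not pass the filter. Without layer B replicate 3, which enters this comparison only through the shared spread, Slc17a6 (-2.60, SE 0.411, adjusted p = 0.000726) and Abat (0.90, SE 0.269, adjusted p = 0.0295) were both called, with 17.5% of all transcripts.

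In the third comparison, of layers B and C, no member was called by edgeR, and neither was any other transcript (0.0%). At an unadjusted p under 0.05, 4 members (Gad2, Slc32a1, Slc6a11 and Abat) passed besides Slc17a8, as did 2316 transcripts (4.11%, and 4.94% of the highest ones), and DESeq2 called 124 transcripts and none of the members. These genes had their higher mean in C, with log2 fold changes of B over C of -1.84 (SE 0.867) for Slc17a8, -1.19 (SE 0.444) for Gad2, -1.05 (SE 0.46) for Slc32a1, -0.62 (SE 0.283) for Slc6a11 and -0.67 (SE 0.301) for Abat. The samples of layer C were above those of layer B without overlap for Slc6a11 and Abat, as for 4.99% of the highest transcripts. Slc17a7 (0.40, SE 0.358) and Gad1 (0.10, SE 0.541) had the higher mean in B and Slc17a6 (-1.13, SE 0.605) in C.

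Layer B replicate 3 moved this comparison as well. Without it, the values were -2.52 for Slc17a6 (SE 0.475, adjusted p = 0.071), -1.97 for Gad2 (SE 0.394, adjusted p = 0.0771), -1.92 for Slc32a1 (SE 0.374, adjusted p = 0.077) and -1.38 for Gad1 (SE 0.315, adjusted p = 0.101), so that the sign of Gad1 turned. None passed, in a fit that called 17 transcripts (0.0305%). Abat was then at -0.95 (SE 0.308), Slc6a11 at -0.66 (SE 0.3) and Slc17a7 at 0.58 (SE 0.354).

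Ratios of genes within a sample do not depend on how the libraries were scaled. The log2 ratio of Slc17a7 to the geometric mean of Gad1, Gad2 and Slc32a1, each per kilobase, was 0.90, 2.55 and 2.57 in layer A. It was 5.45, 5.38 and 2.63 in B and 3.73, 2.57 and 2.87 in C. The ratio was thus highest in replicates 1 and 2 of layer B, and that of replicate 3 lay within the range of the other layers. The ratio of Slc17a6 to Slc17a7 was -4.57, -6.48 and -4.37 in layer A, -6.01, -6.27 and -2.82 in B and -3.57, -2.05 and -3.32 in C. All samples of layer C were above all samples of layer A, and 1 sample of layer B reached the range of layer C. The log2 ratio of Gad2 to Gad1 was 1.39, 0.83 and 0.68 in layer A, 0.43, 0.31 and -0.67 in B and 0.82, 0.98 and 1.03 in C, and layer B was below both others without overlap.

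**Figure D3:**
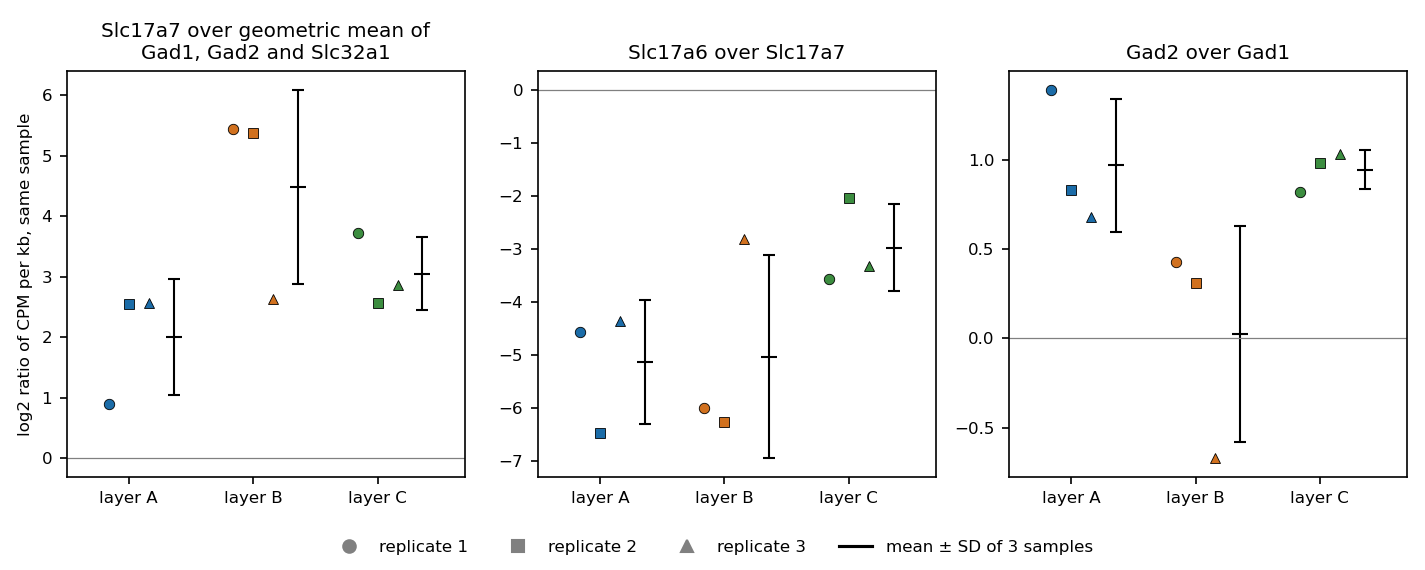
Log2 ratio of CPM per kb within each sample (y axis) by layer (x axis) for Slc17a7 over the geometric mean of Gad1, Gad2 and Slc32a1, for Slc17a6 over Slc17a7 and for Gad2 over Gad1, with 1 point per sample and the mean ± SD of 3. Replicates 1 and 2 of layer B are highest in the first panel, and replicate 3 lies away from them in all panels.

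The genes were also set against neuronal transcripts of the same sample. The reference was a list of 10 pan-neuronal genes such as Snap25 and Syt1, of which 9 were lower in A than in B and 7 lower in A than in C, or 7 and 8 without layer B replicate 3. Over that list, the log2 ratio of Gad2 was 0.73 ± 1.04 (SD, n = 3) in layer A, -2.85 ± 0.44 in B and -1.33 ± 0.46 in C, and that of Gad1 was -0.23 ± 0.69, -2.88 ± 1.04 and -2.27 ± 0.35. Slc32a1 was at -3.08 ± 0.76, -5.63 ± 0.52 and -4.18 ± 0.26, so that its mean was higher in A than in C on this scale and lower in CPM. For these 3 genes every sample of layer A was above every sample of B and C, replicate 3 of layer B included. Without that replicate, the means in B were -3.11 for Gad2, -3.48 for Gad1 and -5.93 for Slc32a1. Slc6a11 was at -0.09 ± 0.73, -3.93 ± 0.55 and -3.16 ± 0.06 in A, B and C, and Abat at 0.14 ± 0.85, -2.99 ± 0.12 and -2.14 ± 0.13. For them, too, every sample of layer A was above those of B and C, so the separation was not particular to Gad1, Gad2 and Slc32a1. The list itself had a median log2 fold change of -1.54 for A against B and -1.43 for A against C. Any ratio over it is therefore raised in layer A. The share of all genes that separate on this scale was not computed, so the separation is not a result about the members. The ratio of Slc17a7 was 0.86, 1.7 and 0.89 in layer A, 1.27, 1.22 and -0.39 in B and 0.73, 0.14 and 0.51 in C. Layers A and B overlapped, and which of them had the higher mean turned on replicate 3 of layer B, with means of 1.15 and 0.70 with it and 1.25 in B without it. Slc17a6 was at -3.99 ± 0.7, -4.33 ± 0.99 and -2.52 ± 0.53, with the highest mean in C on both scales, and at -4.90 in B without replicate 3.

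The upstream part of the genes gave another view of layer B replicate 3. For Gad1, an annotated transcript that ends before the last 66.7% of the exonic bases had 5.68 to 10.2% of the count of the full transcript in the 8 other samples and 1.23% in this one. Its own level was 1.1, 1.2 and 0.958 CPM in B, so that the high Gad1 value of replicate 3 was absent there. On this transcript Gad1 was higher in A than in B with all 9 samples (log2 fold change 1.77, adjusted p = 0.0104), at levels of 3.39, 4.61 and 3.14 CPM in layer A. For Gad2 the share was 0.697 to 4.35% in the others and 0.373% in replicate 3, and the transcript gave 1.18 between layers A and B (adjusted p = 0.164). For Abat it was 1.11 to 4.65% and 0.424%, and the transcript gave 1.92 (adjusted p = 0.0616). These upstream transcripts had few counts, from 7 to 361, and were chosen after the data were seen. In replicate 3 such transcripts were read low in general, at 8.35% in the median of genes against 13.4 to 19.7% in the other samples. That shortfall lowers layer B in these comparisons, so that they cannot tell the level of a gene in replicate 3. The part of read position in its levels was not tested.

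**Figure D4:**
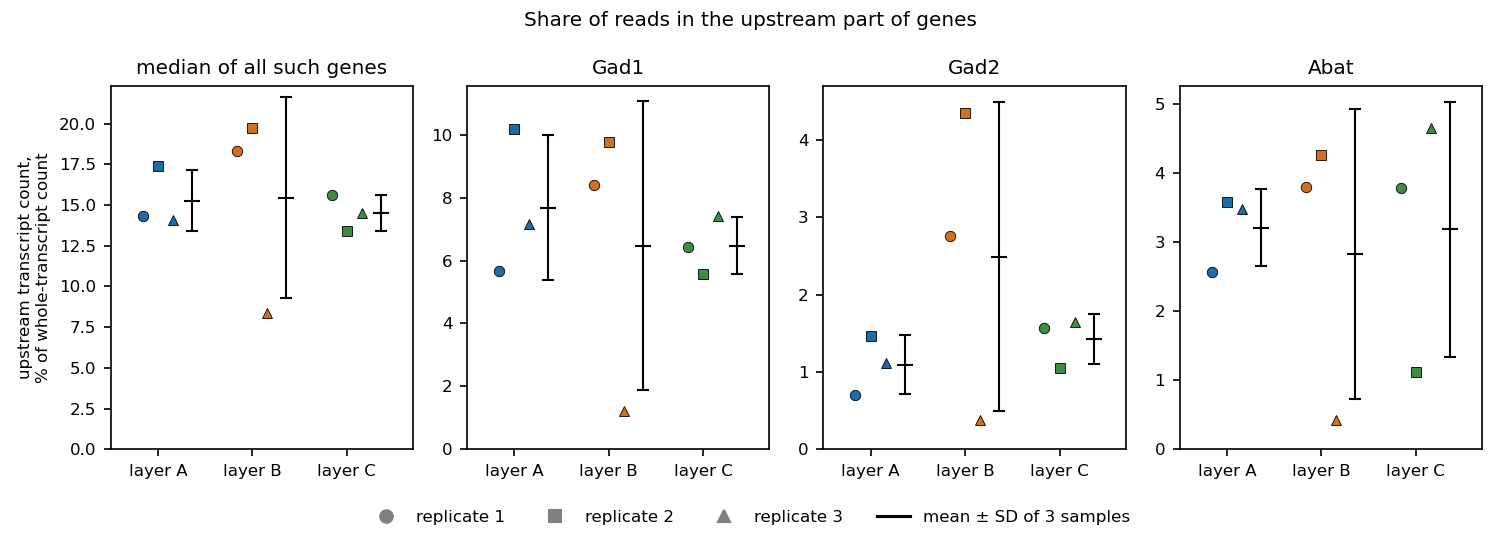
Count of a transcript confined to the upstream part of a gene as a percentage of the count of the full transcript (y axis) by layer (x axis), as the median of 3097 genes and for Gad1, Gad2 and Abat, with 1 point per sample and the mean ± SD of 3. Layer B replicate 3 is lowest in all 4 panels, at 8.35% in the median.

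Markers of several cell types also differed between the layers. As a reference for the counts of all gene lists, 13.2% of the highest transcripts were called higher in A than in B and 7.65% lower. Against C these shares were 9.33% and 5.47%. All 12 astrocyte markers were higher in A than in layers B and C, with a summed level of 1780 to 2720 CPM in layer A, 248 to 573 in B and 431 to 554 in C, and none at 0. Of 10 vessel and meningeal markers, 10 and 9 were higher in layer A (summed level 164 to 260 CPM, against 7.66 to 26.6 in B and 18.3 to 29.8 in C), and of 6 microglia markers, 5 and 5 (107 to 140 CPM, against 17.2 to 46.5 and 38.8 to 54.9), with no marker at 0. Without layer B replicate 3 the counts of astrocyte and microglia markers were as before, and those of vessel and meningeal markers were 10 and 10. Slc6a11 is itself known from astrocytes, and Abat from neurons and glia, and the part of these cells in their levels was not tested. Of 10 excitatory neuron markers, 6 were lower in layer A in each comparison and 1, Camk2a, whose mRNA is known from dendrites, was higher. Without that replicate 5 were lower in A than in B, and the counts against C were as before. Of 15 interneuron markers, Ndnf and Dlx6os1 were higher in A than in both other layers, while Lhx6 and Sst were lower in A than in C and Lamp5 lower in A than in B. Against B, the counts of interneuron markers were near the shares of all the highest transcripts. The summed level of the 15 was 58.8 and 54.6 CPM in replicates 1 and 2 of layer B and 224 in replicate 3, where Sst was at 72.9 CPM against 4.36 and 4.27. It was 93.3 to 152 CPM in layer A, where Pvalb and Cort were at 0 in replicate 1, and 154 to 201 in C. Without replicate 3 of layer B, 4 markers were higher and 1 lower in A than in B, 2 were higher and 8 lower in A than in C, and 2, Sst and Nxph1, were lower in B than in C. The part of interneuron number in the levels of the GABA genes was not tested.

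Of 7 markers of striatal projection neurons, which are GABAergic and lie near the piriform cortex, 6 were tested and 2 (Drd1 and Penk) were lower in A than in B, and none was called between A and C. Without layer B replicate 3, 5 were tested, the same 2 were lower in A than in B, and Tac1 was lower in A than in C (-2.66, SE 0.71, adjusted p = 0.0161). Their summed level was 16.6 to 55.8 CPM in layer A, 90.7 to 183 in B and 33.7 to 69.9 in C, with Drd2 at 0 in 1 sample each of B and C and Adora2a in 1 of C. Of 4 markers of the endopiriform nucleus and claustrum, 2, Nr4a2 and Oprk1, were higher in C than in A, with the same counts without layer B replicate 3. Their summed level was 18.3 to 21.3 CPM in layer A, 17.8 to 22.4 in B and 23.7, 35.2 and 112 in C. In the same samples of C, Slc17a6 was at 28.4, 40.6 and 29.9 CPM. Oprk1 was at 0 in 2 samples of layer A. Of 6 oligodendrocyte markers, 1, Cnp, was higher in A than in B, and without layer B replicate 3 there were 5. They summed to 158 to 260 CPM in layer A, 42.0, 45.4 and 211 in B and 126 to 470 in C.

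A list of 7 further GABA pathway genes held genes of uptake and of metabolism, and not of GABA removal alone. Of these, 6 were higher in A than in B and 3 (Slc6a12, Slc6a13 and Maob) were higher in A than in C, and none was called lower. Aldh5a1, which oxidizes the product of Abat, had a log2 fold change of 1.96 over layer B (SE 0.361, adjusted p = 0.00208). Against layer C, Aldh5a1 (1.06, adjusted p = 0.0647), Aldh9a1 (1.22, 0.0847) and Pdxk (0.41, 0.453) did not pass. Akr7a5 had its lower mean in layer A in both comparisons (-0.76 and -0.75, adjusted p = 0.498 and 0.555). Slc6a13 and Slc6a12, transporters known from meninges and vessels, had the highest values, 5.38 and 4.76 over layer B, from means of 5.71 and 2.22 CPM in layer A and counts of 1 to 15 per sample in B, so that these values depend on the prior count. Slc6a12 reached 10 counts only in the samples of layer A and so passed the filter through the layer where it was higher. Leaving it out, 5 of 6 genes were higher in A than in B and 2 of 6 than in C. These counts still hold Slc6a13, which also passed the filter only through layer A. Outside that layer it reached 10 counts only in layer B replicate 3 and layer C replicate 3. Of the genes called over C, only Maob did not pass in this way. Maob was higher in layer A in both comparisons, at 2.24 over layer B and 2.04 over layer C. Without layer B replicate 3, the counts over all 7 were 5 and 5, as Pdxk was not called over B (adjusted p = 0.0609) and Aldh5a1 and Aldh9a1 were called over C (0.0326 and 0.0227).

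The genes of glutamate supply and uptake moved in both directions. Of 16 genes, 8 were higher and 3 lower in A than in B, and 8 higher and 2 lower than in C. Without layer B replicate 3 the counts against B were as before, and 4 were lower in A than in C, with Slc25a12 and Slc25a22 added. Those higher included the astrocyte transporters Slc1a2 (log2 fold change over layer B 3.24, SE 0.363, adjusted p = 0.000177) and Slc1a3 (3.08, SE 0.388, adjusted p = 0.000239), glutamine synthetase, Glul (2.88, SE 0.468, adjusted p = 0.000941), and the glutamine exporter Slc38a3 (2.37, SE 0.377, adjusted p = 0.00083). Those lower were Got1, an aminotransferase that interconverts glutamate and aspartate (-1.58, SE 0.362), the neuronal transporter Slc1a1 (-1.14, SE 0.333) and the mitochondrial carrier Slc25a22 (-1.48, SE 0.474), with adjusted p of 0.00775, 0.0286 and 0.0431. Got1 and Slc1a1 were lower in A than in C as well. The median was 0.39 and 0.82 against B and C. Between layers B and C no gene of either pathway passed.

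**Figure D5:**
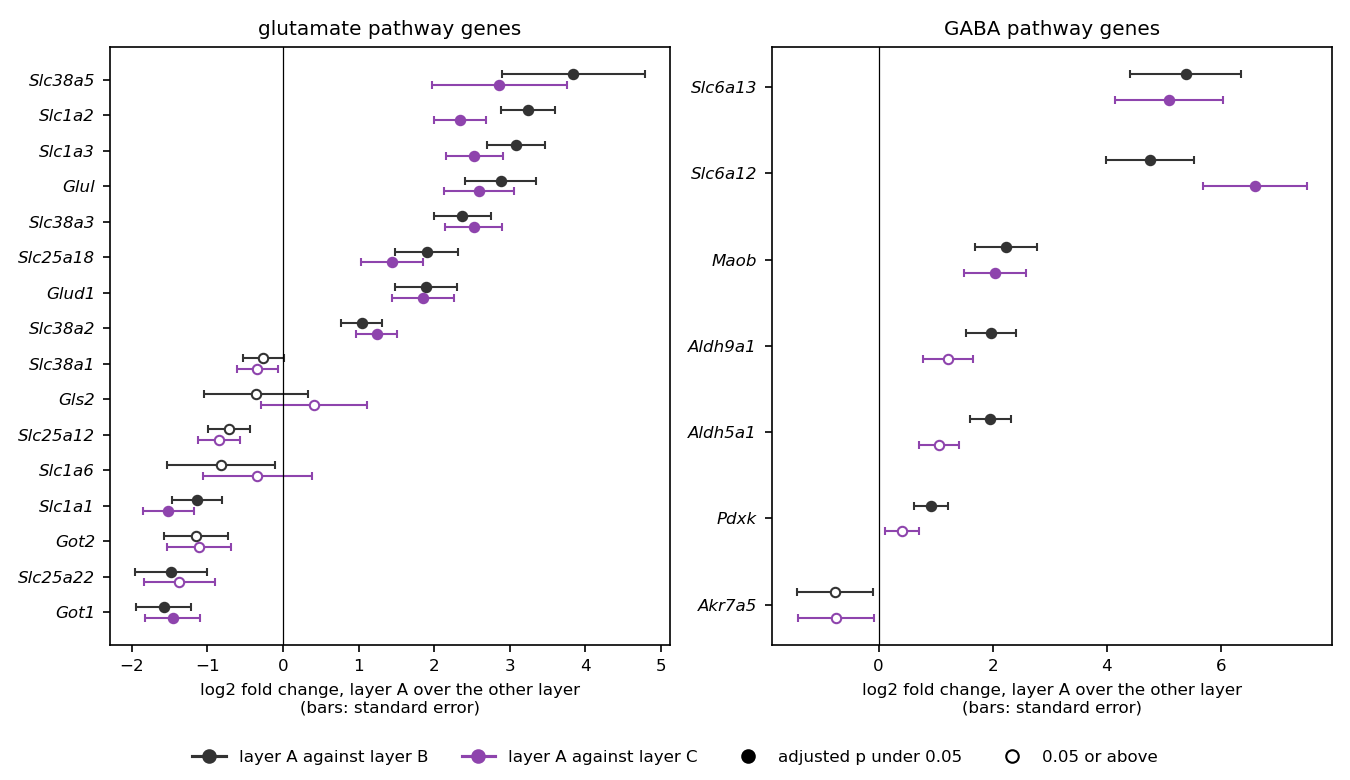
Log2 fold change (x axis, points) with its standard error (bars) of 16 glutamate pathway genes (left) and 7 GABA pathway genes (right) for layer A over layer B and over layer C, with filled points where the adjusted p was under 0.05. Genes of astrocyte glutamate handling such as Slc1a2 and Glul lie to the right, Slc1a1 and Got1 to the left, and 6 of the 7 GABA pathway genes lie to the right of 0 in both comparisons.

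Over the 9 samples, the levels of the GABA genes of neurons ran together. Pearson's correlation of log2 CPM was 0.84 between Gad1 and Gad2, 0.82 between Gad1 and Slc32a1 and 0.88 between Gad2 and Slc32a1. It was 0.92 between Slc6a11 and Abat and 0.91 between Gad2 and Abat, but 0.41 between Slc32a1 and Slc6a11. Slc17a7 ran against Gad2 (-0.83) and was little related to Slc17a6 (0.13). The points share libraries and layers, and these values only describe the 9 samples.

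Of 6608 genes with a mean of at least 5 CPM, those most like each member over the 9 samples were Sncb (0.991), Cers1 (0.976) and Ankrd50 (0.975) for Slc17a7 and Igsf5 (0.974), Pcp4 (0.971) and Cacng2 (0.965) for Slc17a6. They were Kif5a (0.979), Rbms3 (0.977) and Sema5a (0.974) for Gad2, Me1 (0.971), Rfc5 (0.967) and Aktip (0.965) for Gad1, and Ermn (0.96), Tspan2 (0.949) and Coro2a (0.941) for Slc32a1. For Slc6a11 they were Nwd1 (0.995), Mcc (0.989) and Ddn (0.988), and for Abat Gatm (0.986), Mboat2 (0.982) and Lypd6 (0.98). The closest to Slc17a8, at counts near the floor, were Dusp7 (0.907), Fig4 (0.905) and Tmem9 (0.905). The mean level of Pcp4 was 15.9 CPM in layer A, 89.8 in B and 101 in C.

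Several of the counts cannot be assigned to 1 transcript or locus. The second transcript of Gad1 had 98.0% of the mean count of the first and that of Abat 46.1%, and reads that overlap several transcripts seem to have been counted for each. Gad1 has a processed pseudogene on chromosome 10 (Gad1-ps, at 99444044 to 99445819), which had 26 to 393 counts per sample and 39 in layer B replicate 3, against 3733 for Gad1 there.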

How the data were processed

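RNA of laser-captured piriform cortex layers was amplified by the authors (Ovation system) and sequenced in paired-end, strand non-specific libraries. The reads were aligned to mm10 with Bowtie, and per the labels bcl2fastq 1.8.4 and HTSeq 0.5.3 were used. The authors deposited raw counts per Ensembl transcript for each sample, without normalization. The counting mode and the Ensembl release are not given in the sources used here. Amplified reads without molecular identifiers are not independent molecules.

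Of 95533 transcripts, 82779 (86.6%) matched GENCODE on GRCm38, which is the mm10 assembly. Samples were grouped by the lettered layers. The 56416 transcripts that reached 10 counts in 3 or more samples entered edgeR 4.0.16 (R 4.3.3), with TMM scaling. Pairs of layers were compared by its quasi-likelihood F-test in a single fit to all 9 samples, p-values were adjusted by Benjamini and Hochberg over all tested transcripts, and 0.05 was the threshold. Standard errors are the log2 fold change divided by the root of F. Replicates differed beyond counting noise (chi-square per degree of freedom 16.2 to 248). DESeq2 1.42.0, another normalization, other filters, a replicate block, sums by gene, 1 transcript per gene, removal of mitochondrial transcripts and leaving out each sample were alternatives. Correlations used log2 CPM with a prior count of 2, and the 3 most similar genes were named. Of the gene lists, those past the threshold could be named, up to 4 a direction by the smallest p. Some genes that passed the filter on low counts only through the layer where they were higher were named as well. The fit was tested on simulated data. The members and lists were chosen with earlier results of these data known. Genes that are not reported here were left out of 3 of the lists, and the lists' counts are without them.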

Additional observations from a re-analysis of the deposited data

How the results depend on the processing

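Over 24 member fold changes and 436 alternative values, 406 kept both direction and side of the threshold, 10 lost and 14 gained a call, and 6 changed sign. All 6 were Gad1 between layers B and C (0.10 as reported): -0.27 with the replicate block, -0.13 with counts summed by gene, -0.08 with 1 transcript per gene, -0.98 on the upstream transcript (chosen after seeing the data), and, leaving out samples, -1.38 without layer B replicate 3 and -0.06 without layer C replicate 1 (range -1.38 to 0.48). Upstream transcripts were read low in layer B replicate 3 in general, which lowers layer B on that measure. The causes of the changes in sign were not tested. The second transcript of a gene was also among the alternatives. For Gad2 it was the same as the upstream transcript. Its values, with the lost call between layers A and B, are therefore counted under both in the totals above. Members called between layers A and B numbered 5 with no filter on low counts, where Slc17a7 (adjusted p = 0.029) and Slc17a6 (0.0374) passed, and 2 to 6 leaving out samples, and between A and C 1 to 3. DESeq2 also called Slc17a7 (A and B, adjusted p = 0.0354) and Abat (A and C, 0.0499). Transcripts called were 3565 and 3693 between A and B, and 2623 and 2776 between A and C, summed by gene and with 1 transcript per gene, where fewer features were tested. They ranged from 5570 to 11337 and from 1369 to 9740 leaving out samples, the lowest of each without layer A replicate 1 and without layer C replicate 1 in turn. Between B and C they numbered 124 with DESeq2, 10 with no filter, 1 summed by gene, 4 with 1 transcript per gene and 0 to 17 leaving out samples. Same-numbered samples correlated in their deviations at -0.186 to 0.243, and differently numbered ones at -0.369 to 0.394. With 3 samples a layer, these values cannot tell whether samples of the same number share an animal. The replicate block gave 3, 3 and 0 called members and 9184, 6384 and 0 transcripts in the comparisons A-B, A-C and B-C. Slc17a8 could not be fitted without layer B replicate 3 or layer C replicate 1 or 3. Counts near the floor limit Slc17a8, and 3 samples a layer limit all tests.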
